A study of Homo sapiens with 8 samples.

Results

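The estradiol-transformed line trMCF clone 11 was compared with its parental line MCF-10F on 4 of the 8 arrays of the series, 2 for each line, chosen by their titles. MCF-10F is an immortalized, normal-like human breast epithelial line, known as negative for estrogen receptor, with no treatment named for these arrays. trMCF clone 11 is 1 line grown from a single ring-cloned colony of MCF-10F cells that had been given a high dose of estradiol, so any difference may belong to that clone. The other 4 arrays hold the clone after 26 days in all-trans retinoic acid (ATRA) at 1 or 10 µM, and the 2 arrays at 1 µM enter the fit only to estimate the spread. The tag of the first clone array reads normal although the title names the clone, and the title was followed. Whether the clone arrays hold untreated or vehicle-treated cells, and whether the arrays of a line came from separate cultures, is not stated in the labels or Methods, so each p-value measures only the spread between arrays, which may be technical. All 19775 genes with a single-gene probe set were described, each at the brightest of its probe sets, out of 41091 single-gene probe sets. Every level is the log2 of the deposited signal, and every difference is the clone mean minus the MCF-10F mean on that scale.

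Breast epithelial cells of basal type rest on a basement membrane, make keratins and laminins, and normally make little of the fibrillar matrix that fibroblasts lay down. In culture such lines can take on part of a mesenchymal program, with fibronectin, N-cadherin and vimentin, while they keep epithelial cadherin. Interferon-stimulated genes are switched on through response elements that bind STAT and IRF proteins, and many cell lines hold a low standing level of them. MicroRNA-205 is a small RNA of basal and stratified epithelium, known for its action on the repressors ZEB1 and ZEB2.

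The 2 mature arms of microRNA-205 are shown because its host transcript and a second transcript of its locus rose; the mature RNA itself was not measured. Capitals mark the seed, bases 2 to 8, and positions are of GRCh38.p14 (RefSeq).
hsa-miR-205-5p, chr1:209432166-209432187, plus strand: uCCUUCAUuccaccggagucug
hsa-miR-205-3p, chr1:209432203-209432223, plus strand: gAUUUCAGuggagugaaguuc

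The 200 bases before the start are shown for 4 interferon-stimulated genes that fell, since 12 members of that group fell; capitals mark each match to TTTCNNTTTC on either strand (RefSeq, GRCh38.p14, each 5′ to 3′ on the strand of its gene).
IFIT3, chr10:89327797-89327996, plus strand: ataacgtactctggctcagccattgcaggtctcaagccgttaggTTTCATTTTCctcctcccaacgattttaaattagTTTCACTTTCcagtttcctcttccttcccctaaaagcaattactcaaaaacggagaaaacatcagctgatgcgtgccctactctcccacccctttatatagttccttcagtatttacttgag
GBP1, chr1:89065209-89065408, minus strand: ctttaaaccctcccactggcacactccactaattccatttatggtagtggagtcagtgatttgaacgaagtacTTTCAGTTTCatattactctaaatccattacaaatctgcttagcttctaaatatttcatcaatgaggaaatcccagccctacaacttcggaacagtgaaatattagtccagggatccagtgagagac
EPSTI1, chr13:42992242-42992441, minus strand: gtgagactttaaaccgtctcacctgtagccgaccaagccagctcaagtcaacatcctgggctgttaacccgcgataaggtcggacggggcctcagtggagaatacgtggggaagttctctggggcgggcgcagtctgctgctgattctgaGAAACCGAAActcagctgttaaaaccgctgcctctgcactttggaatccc
HERC6, chr4:88378652-88378851, plus strand: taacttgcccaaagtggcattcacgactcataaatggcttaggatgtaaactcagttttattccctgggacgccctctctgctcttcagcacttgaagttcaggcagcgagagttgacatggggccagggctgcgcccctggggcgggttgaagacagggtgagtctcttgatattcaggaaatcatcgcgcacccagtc

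IFIT3 shows 2 matches in this stretch, GBP1 1, EPSTI1 1 read on the opposite strand, and HERC6 0. Over the full 300-base windows that span each start, 12 of 13 promoters of the listed interferon-stimulated genes that fell held a match (92.3%, 10 of 12 genes found in the table). The windows of IFI27 overlap each other and hold the same matches, as do those of IFI44, so these matches are counted more than once. Of the genes found only HERC6 had no match. Of 47 promoters of the other measured members of that list, 28 did (59.6%), and of all 35116 promoters 1255 did (3.57%). Promoters of all genes that fell held it in 31 of 583 cases (5.32%), and those of all genes that rose in 11 of 447 (2.46%). These shares describe letters only, and the list consists of genes known for such elements.

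Over the whole comparison 895 genes changed at an adjusted p under 0.05 (limma's moderated test, adjusted over all probe sets). Of these, 372 were higher in the clone (1.88% of all genes) and 523 lower (2.64%). The 4 arrays did not overlap between the lines for any of these genes, which were called on these same arrays. Among all 19775 genes the clone arrays lay above both MCF-10F arrays for 5431 and below both for 4119, so non-overlap alone is common. The median size was 2.54-fold for genes that rose (1.69 to 30.6) and 3.04-fold for genes that fell (1.68 to 320), and 6 rose and 28 fell by more than 16-fold. Without MCF-10F replicate 1 the counts were 33 higher and 126 lower, without trMCF clone 11 replicate 2 they were 1341 and 2201, and without trMCF clone 11 replicate 1 they were 268 and 330. A fit of only the 4 arrays called 4 and 13.

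Each clone array was then set singly against the MCF-10F mean. A change held on both where each clone array lay at least 2-fold from that mean and beyond both MCF-10F arrays. Among all genes 410 held as higher (2.07%) and 730 as lower (3.69%). Of the called genes, 261 of 372 higher (70.2%) and 414 of 523 lower (79.2%) held. The other 111 higher genes passed 2-fold on clone array 1 only in 44 cases, on array 2 only in 34 and on neither in 33. The other 109 lower genes did so in 55, 23 and 31 cases. When the fit was run with each clone array alone, assuming that the lone array varies like the other groups, 197 genes were called higher in both fits (0.996%) and 309 lower (1.56%). Of these, 154 and 253 were also called with both arrays and held at 2-fold on each.

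**Figure D1:**
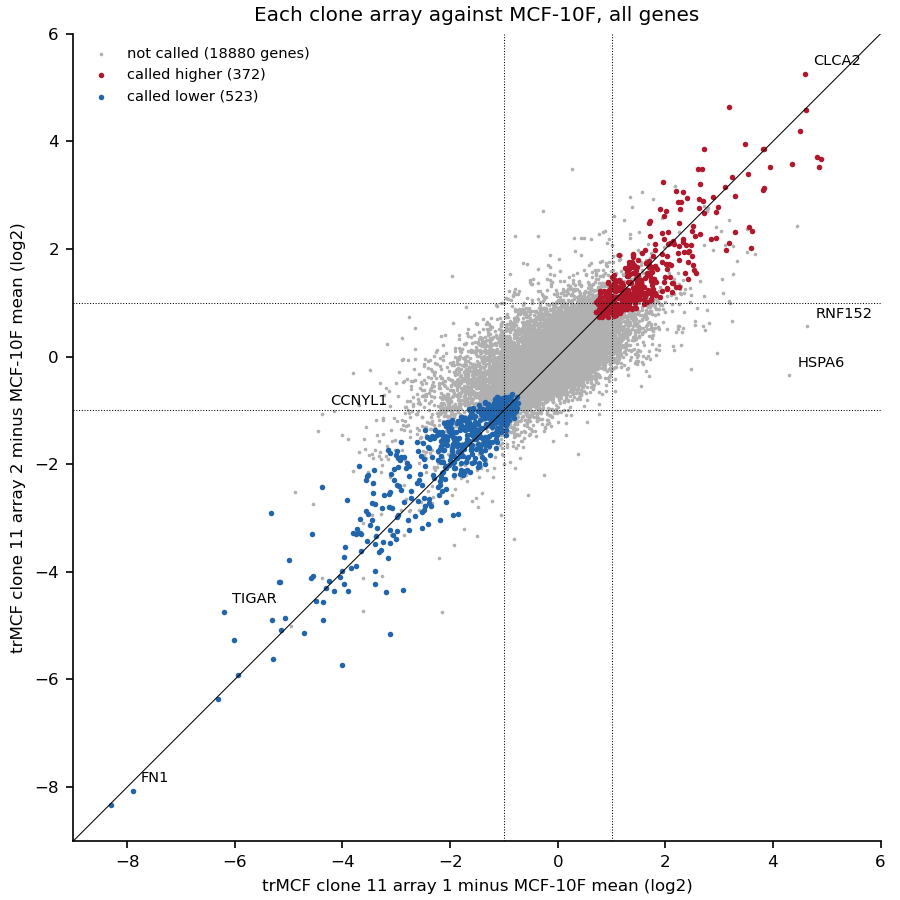
Difference of trMCF clone 11 array 1 (x axis) and array 2 (y axis) from the MCF-10F mean, log2, for 19775 genes, with 2-fold as dotted lines and equal change as a solid line. The 372 genes called higher and 523 called lower lie along the diagonal, while HSPA6 and RNF152 lie far to the right at little change on array 2.

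The clone arrays differed from each other more than those of MCF-10F. They lay over 2-fold apart at 1450 genes (7.33%) against 760 in MCF-10F (3.84%), and 1133 of the 1450 were lower on clone array 1. On 809 of them only clone array 1 stood 2-fold or more from MCF-10F, and on 124 only array 2 did. Called genes made up 40 of the 1450, against 895 of 19775 over all genes. The spread between the clone arrays enters the test, so genes picked for a wide spread are less easily called. Array medians were 47.5 to 48.9 in signal over the 4 arrays, and 21.5 to 23.3% of probe sets had signals under 16. The ratio of 3′ to 5′ signal of control probe sets is a measure of RNA integrity. For ACTB it was 5.57 and 5.69 on the first arrays of MCF-10F and the clone and 7.75 and 7.91 on the second. For GAPDH it was 1.7 and 1.57 on the first arrays and 1.38 and 1.29 on the second. Both ratios differed more by replicate number than by line, but in opposite directions.

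The epithelial character of both lines was checked first. EPCAM, CDH1, KRT8 and KRT18, markers of epithelium, had signals of at least 2810 on each of the 4 arrays, and none of the 4 was called. CDH1, epithelial cadherin, was at 12.41 and 12.52 in MCF-10F and at 12.47 and 12.50 in the clone, a difference of 0.03 (SE 0.14, adjusted p = 0.946). The basal markers KRT5, KRT14, ITGA6 and ITGB4 were bright on all arrays as well. KRT14 varied within lines, at 13.16 and 10.38 in MCF-10F and 11.66 and 12.15 in the clone. Of 4 luminal markers only ESR1 was called, as higher. KRT19 and FOXA1 differed by -0.75 and -0.62 and GATA3 by 0.51. Of 5 adipocyte markers only LPL was called, lower by 1.68 (adjusted p = 0.0239). The summed adipocyte signal was 236 and 286 in MCF-10F and 177 on each clone array. None of 5 endothelial and 6 blood markers was called, and none of them passed an unadjusted p under 0.05. The summed endothelial signal was 200 and 1170 in MCF-10F and 251 and 366 in the clone. PECAM1, at 6.73 and 10.05 against 7.05 and 8.06, was the brightest of them, while CDH5 was between 3.68 and 4.51. The summed blood signal was 259 and 628 against 422 and 314, with CD14 at 5.62 and 8.65 against 7.22 and 6.76 and PTPRC between 3.32 and 3.80.

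The largest rises that held on both clone arrays were in genes of different roles. LINC03125, a long noncoding RNA, was at 5.29 and 5.91 in MCF-10F and at 10.21 and 10.19 in the clone, a rise of 4.60 (SE 0.22, adjusted p = 0.00314). The microRNA-205 locus rose at both of its neighbouring genes. MIR205HG, the host transcript, was at 7.16 and 7.39 in MCF-10F and at 11.77 and 11.48 in the clone. MIR205, read by a separate probe set assigned to that gene, was at 7.64 and 7.79 against 10.41 and 11.21, a rise of 3.09 (SE 0.28, adjusted p = 0.0125). Both probe sets read longer transcripts of the locus, and the mature microRNA was not measured. CPVL, a serine carboxypeptidase, was at 4.31 and 3.56 against 8.82 and 7.61. CLEC2B, a C-type lectin, was at 4.20 and 5.88 against 9.86 and 8.75, and its rise of 4.26 (adjusted p = 0.0302) was not called without MCF-10F replicate 1 or trMCF clone 11 replicate 1. The same held for RRAGD, described next. Of the other largest changes, CPVL, GPNMB, SCRG1, GPM6A, N4BP2L1, TIGAR and PKIB also lost the call without MCF-10F replicate 1. SCRG1 lost it without MCF-10F replicate 2 as well, and MGP without trMCF clone 11 replicate 1.

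Transporters and lipid-binding genes stood among these rises. ABCG1, which exports cholesterol, was at 3.21 and 4.23 in MCF-10F and at 8.07 and 7.29 in the clone, a rise of 3.96 (SE 0.40, adjusted p = 0.0147) that was 2.68 without probe sets of shared targets, those whose names carry a suffix for probes that match more than 1 transcript. FABP6, a bile acid-binding protein, was at 4.53 and 4.82 against 8.51 and 8.52. It rose by 3.84 (SE 0.22, adjusted p = 0.00493), and the clone arrays differed by less than the MCF-10F arrays. GPM6A, a membrane glycoprotein of neurons, was at 3.95 and 4.39 against 7.98 and 8.03, and RRAGD, a GTPase that carries amino acid signals to mTORC1 at the lysosome, at 6.54 and 7.96 against 11.08 and 10.38. Both rose, by 3.84 (adjusted p = 0.013) and 3.48 (adjusted p = 0.0304). SCRG1 rose by 3.92, CLCA2 by 4.93, GPNMB by 4.19, TPRG1 by 3.72 and N4BP2L1 by 3.46. For N4BP2L1 the difference was 0.63 and not called when probe sets of shared targets were left out. As the mean of all probe sets of a gene, FABP6 was at 1.34, SCRG1 at 1.86 and ABCG1 at 2.16. In the same way GPM6A was at 2.51, GPNMB at 3 and N4BP2L1 at 0.83, while CLCA2, TPRG1 and RRAGD were at 4.99, 3.72 and 3.53.

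**Figure D2:**
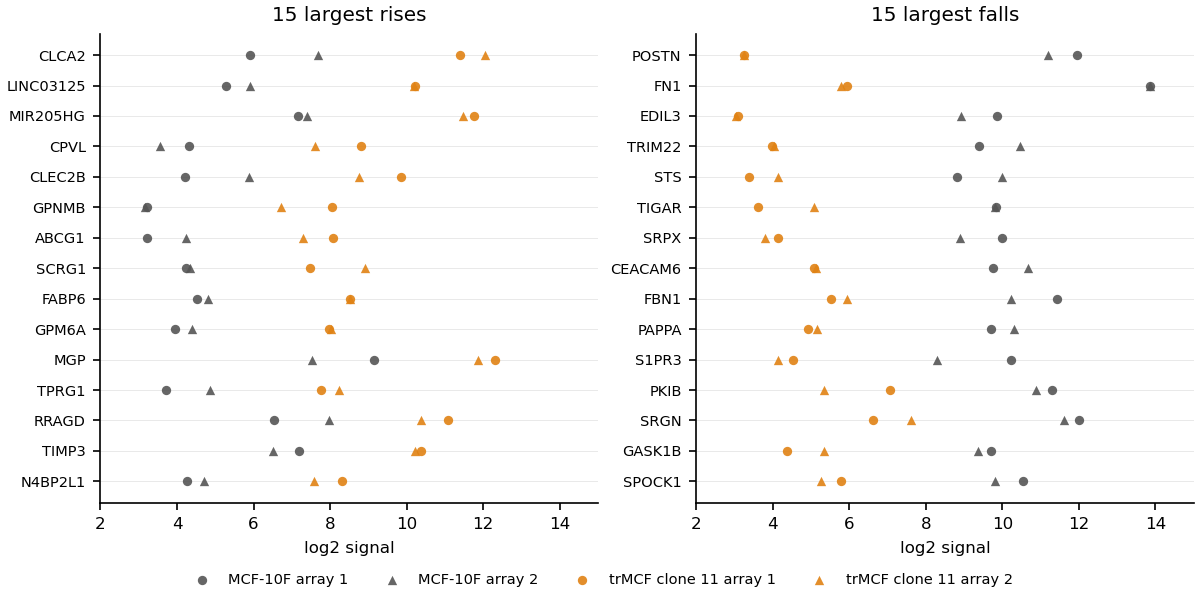
Log2 signal (x axis) of the 15 largest rises and 15 largest falls that held on both clone arrays, 1 point per array, grey for MCF-10F and orange for trMCF clone 11, circles for array 1 and triangles for array 2. FN1 sits at 13.85 on both MCF-10F arrays and at 5.95 and 5.79 on the clone arrays.

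The falls were larger than the rises. CEACAM6, a cell-surface adhesion protein of epithelial cancers, was at 9.76 and 10.68 in MCF-10F and at 5.07 and 5.13 in the clone, a fall of 5.12 on the log2 scale (SE 0.30, adjusted p = 0.00534). S1PR3, a receptor for sphingosine 1-phosphate, was at 10.23 and 8.28 against 4.54 and 4.13. PKIB, an inhibitor of protein kinase A, was at 11.29 and 10.87 against 7.07 and 5.35. Both fell, by 4.92 (adjusted p = 0.023) and by 4.88 (adjusted p = 0.0181). SRGN, the proteoglycan core protein serglycin, was at 11.99 and 11.61 against 6.63 and 7.61, and GASK1B, a Golgi kinase-like protein, at 9.70 and 9.37 against 4.38 and 5.34. They fell by 4.68 each on the log2 scale (adjusted p = 0.00706 for SRGN and 0.00677 for GASK1B). TIGAR, a fructose bisphosphatase, was at 9.84 and 9.82 against 3.62 and 5.09, and it fell by 5.47 (adjusted p = 0.0101), to a low level on both clone arrays. PAPPA, a protease that frees insulin-like growth factors from their binding proteins, fell by 4.97. As the mean of all probe sets of a gene, PAPPA was at -2.41, S1PR3 at -2.52, GASK1B at -2.69 and SRGN at -3.16. CEACAM6 and PKIB were at -5 and TIGAR at -5.47. A group mean below a signal of 16 was found for 46 of the genes that fell and 12 of those that rose, and the size of those changes is uncertain.

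Matrix glycoproteins and proteoglycans fell more often than any other listed group by share. Of 33 measured, 12 fell (36.4%) and 2 rose (6.06%), against 2.64% and 1.88% over all genes. The median difference was -1.09 against 0.06 over all genes. The median was -0.80 on clone array 1 and -0.76 on array 2. FBN1, fibrillin of the elastic microfibrils, was at 11.44 and 10.23 in MCF-10F and at 5.53 and 5.95 in the clone, a fall of 5.10 (SE 0.40, adjusted p = 0.00852). SRPX, a sushi repeat protein, fell by 5.46 (adjusted p = 0.00616), and SPOCK1, a testican proteoglycan, was at 10.53 and 9.80 against 5.79 and 5.26. LTBP1 and LTBP2, which hold latent TGF-β in the matrix, fell by 1.77 (adjusted p = 0.0163) and 1.45 (adjusted p = 0.0444), and CCN2, a matricellular protein, fell by 2.68 (adjusted p = 0.019). POSTN and FN1, with the largest falls, each lay over 7 log2 units below MCF-10F on both clone arrays. When probe sets of shared targets were left out, the POSTN difference was -0.68 and not called, while FN1 and FBN1 stayed called at -3.34 and -4.05.

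The 2 members that rose were THBS2 and MGP. THBS2, thrombospondin 2, was at 4.45 and 4.90 in MCF-10F and at 7.65 and 7.45 in the clone, a rise of 2.88 (SE 0.22, adjusted p = 0.00798). MGP, an inhibitor of calcification, was at 9.15 and 7.54 against 12.30 and 11.86. It rose by 3.74 (adjusted p = 0.0269), and by 2.61 without a call when probe sets of shared targets were left out. Without MCF-10F replicate 1, 6 members of the group were called lower and 2 higher. Without trMCF clone 11 replicate 1, 12 were lower and 1 higher, and without replicate 2, 15 and 5.

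Of 23 mesenchymal genes and factors of epithelial-mesenchymal transition, 5 fell (21.7%; 2 without MCF-10F replicate 1). CDH2, N-cadherin, was at 10.21 and 9.20 in MCF-10F and at 5.45 and 5.52 in the clone, a fall of 4.22 (SE 0.33, adjusted p = 0.00859). FAP, a membrane protease of activated fibroblasts, was at 10.61 and 10.29 against 8.33 and 8.31. It fell by 2.13 (adjusted p = 0.0138), and PRRX1, a mesenchymal homeobox factor, fell by 1.71 (adjusted p = 0.021). VIM, vimentin, was at 13.15 and 11.49 against 9.21 and 10.08, a difference of -2.68 that was not called (SE 0.60, adjusted p = 0.0756). ZEB1, a target of microRNA-205, was at 7.03 and 5.53 against 4.75 and 4.64 (difference -1.59, adjusted p = 0.13). ACTA2 and LOX went the other way without a call, by 1.45 (adjusted p = 0.0834) and 1.53 (adjusted p = 0.139). On each clone array 7 members lay 2-fold or more lower and 2 higher (3.69% and 2.07% over all genes). Called lower were 21.7% of the list, against 2.64% over all genes.

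Collagens showed 4 falls among 29 (13.8%, against 2.64% over all genes). COL1A2, a fibrillar chain, was at 7.54 and 7.59 in MCF-10F and at 5.07 and 4.94 in the clone, a fall of 2.56 (SE 0.14, adjusted p = 0.00486), and the difference was -0.54 and not called without probe sets of shared targets. COL8A1 fell by 4.30 (adjusted p = 0.0146). The neighbouring genes COL4A3 and COL4A4, basement membrane chains transcribed from 1 shared promoter region, both fell: COL4A4 by 3.70 (adjusted p = 0.00877) and COL4A3 by 3.35 (adjusted p = 0.03). COL4A1, the widespread chain, had a difference of -1.59 (adjusted p = 0.165), with 11.28 and 9.57 against 8.81 and 8.88. Neither laminins and basement membrane genes (13) nor integrins (19) held a called member, and ITGB1, the common beta chain, differed by -0.29 (SE 0.16, adjusted p = 0.411).

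Fibroblast markers, which include some of these genes, were also lower in sum. The summed signal over 10 markers was 2450 and 1600 in MCF-10F and 824 and 853 in the clone, and 2 of 10 fell, COL1A2 and DCN. Neither call held without probe sets of shared targets (COL1A2 -0.54, DCN -0.03). The brightest markers were COL1A1, at 10.39 and 9.13 against 7.98 and 8.95 (adjusted p = 0.215), and FBLN1, at 9.20 and 8.95 against 8.28 and 6.99 (adjusted p = 0.128). PDGFRA was between 4.26 and 4.54, LUM between 2.74 and 3.78 and PDGFRB between 5.50 and 5.60. On each array 1 or 2 of the 10 had a signal under 16. In RNA of whole cultures, fewer cells of a type and less RNA per cell cannot be told apart, and the part of other cells in these differences was not tested.

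Hyaluronan enzymes moved in opposite directions. HAS2, a hyaluronan synthase, was at 8.68 and 8.39 in MCF-10F and at 4.56 and 4.80 in the clone, a fall of 3.85 (SE 0.18, adjusted p = 0.00314). HAS3, another synthase, was at 6.25 and 5.74 against 8.41 and 8.94, a rise of 2.68 (SE 0.26, adjusted p = 0.0141). Both changes held on each clone array, and both were called with either clone array alone. HYAL3, of the hyaluronidase family, fell by 1.27 (adjusted p = 0.0236). Of the heparan sulfate enzymes HS3ST1 fell by 1.92 (adjusted p = 0.0221) and HS6ST2 by 1.49 (adjusted p = 0.0239). They were 2 of 28 measured (7.14%, against 2.64% over all genes). Among 36 matrix proteases and inhibitors, TIMP3, a tissue inhibitor of metalloproteinases, rose from 7.18 and 6.50 to 10.37 and 10.23 (adjusted p = 0.00662). SERPINE2, a protease inhibitor, fell from 13.22 and 12.70 to 9.61 and 9.77 (adjusted p = 0.0109).

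**Figure D3:**
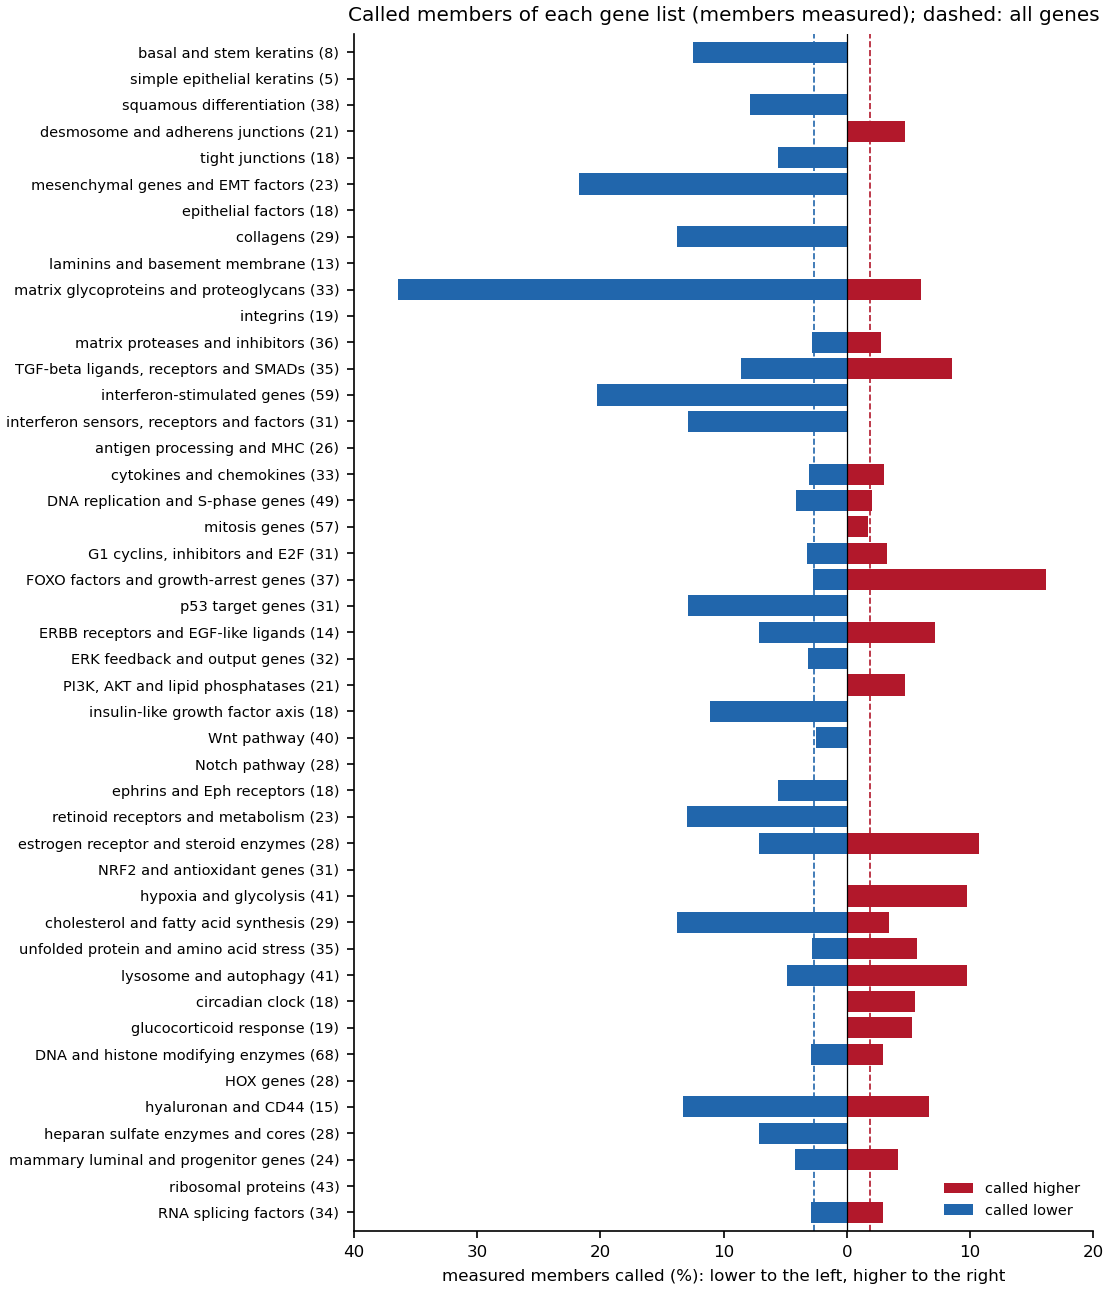
Share of the measured members of 45 gene lists called higher (red, to the right) and lower (blue, to the left), in percent, with the number measured in brackets and the shares over all genes, 1.88% and 2.64%, as dashed lines. Matrix glycoproteins reach 36.4% lower, and growth-arrest genes 16.2% higher.

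The TGF-β pathway was split. TGFB2, a ligand, was at 8.75 and 9.49 in MCF-10F and at 4.56 and 5.81 in the clone, a fall of 3.93 (SE 0.46, adjusted p = 0.0212). TGFBR2, the ligand-binding receptor, fell from 12.56 and 12.30 to 10.33 and 10.79 (adjusted p = 0.0188), and ACVR2A fell by 1.04 (adjusted p = 0.0344). TGFB1, another ligand, was at 5.83 and 5.69 against 7.51 and 6.98 and rose by 1.49 (adjusted p = 0.0304), but the difference was 0.01 and not called without probe sets of shared targets. ID2, an inhibitor of basic helix-loop-helix factors, rose by 2.97 (adjusted p = 0.0323), from 8.33 and 8.83 to 12.19 and 10.91. With ACVR1B, which rose by 1.09 (adjusted p = 0.0413), 3 of 35 measured rose and 3 fell (8.57% each, against 1.88% and 2.64% over all genes).

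Interferon-stimulated genes fell where they were called. Of 59 measured, 12 fell (20.3%, against 2.64% over all genes), 11 of them by 2-fold or more on each clone array. In limma 0 rose, and 3 were higher at an unadjusted p under 0.05. The median was -0.44, with -0.37 on clone array 1 and -0.60 on array 2. IFI44 was at 6.86 and 7.23 in MCF-10F and at 4.65 and 4.31 in the clone, and its neighbour IFI44L was at 7.78 and 8.21 against 6.06 and 5.04. They fell by 2.57 (adjusted p = 0.00991) and 2.45 (adjusted p = 0.037), and IFI44 was at -0.74 and not called without probe sets of shared targets. IFIT3, with 2 matches in its promoter, was at 7.12 and 7.07 against 4.91 and 4.72. It fell by 2.28 (SE 0.23, adjusted p = 0.0147), while HERC6, whose window held none, fell by 1.94 (SE 0.23, adjusted p = 0.0221). TRIM22 and its neighbour TRIM6 both fell, TRIM6 from 7.41 and 6.49 to 4.22 and 4.46 (adjusted p = 0.0217). GBP2, a guanylate-binding protein, went the other way without a call, at 6.35 and 8.58 against 10.81 and 9.24 (adjusted p = 0.154). The count of 12 was 2 without MCF-10F replicate 1, 5 without MCF-10F replicate 2, 13 without trMCF clone 11 replicate 1 and 19 without replicate 2.

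Sensors and receptors upstream of interferon also fell, 4 of 31 (2 without MCF-10F replicate 1). TLR3, which detects double-stranded RNA, was at 6.44 and 7.17 in MCF-10F and at 3.83 and 3.86 in the clone, a fall of 2.95 (SE 0.25, adjusted p = 0.0109). TLR4, which detects lipopolysaccharide, was at 6.65 and 6.12 against 3.11 and 3.57 and fell by 3.04 (adjusted p = 0.00932). MYD88, the adaptor of TLR4 and most other Toll-like receptors, fell by 1.57 (adjusted p = 0.0376). IFNAR1, a chain of the type I interferon receptor, fell by 1.61 (adjusted p = 0.0247) at its brightest probe set, but 1 of its other probe sets rose by 1.28 (adjusted p = 0.0253), so its direction depends on the probe set. The 4 falls among sensors and receptors were 12.9% of their list, against 2.64% over all genes. None of 26 genes of antigen processing was called.

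Some chemokines differed widely between the arrays of MCF-10F. CXCL8, interleukin 8, was at 10.34 and 12.79 in MCF-10F and at 7.95 and 6.83 in the clone, a difference of -4.17 that was not called (SE 0.79, adjusted p = 0.0522). CXCL6 was at 4.78 and 10.09 against 3.04 and 3.31 (adjusted p = 0.206). CXCL5, a neutrophil chemokine, fell from 11.29 and 12.29 to 8.04 and 8.50 (adjusted p = 0.0146; -1.20 and not called without probe sets of shared targets), as did its neighbour PPBP, from 6.82 and 8.15 to 3.33 and 3.12 (adjusted p = 0.0141). TNFSF11, the ligand RANKL, rose from 3.42 and 3.94 to 6.40 and 7.54 (SE 0.39, adjusted p = 0.0217). Of 33 measured, 1 was called in each direction (3.03% each, against 1.88% higher and 2.64% lower over all genes). On each clone array 10 lay 2-fold or more lower and 3 higher (3.69% and 2.07% over all genes).

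Growth-arrest genes that were called mostly rose. Of 37 FOXO factors and growth-arrest genes, 6 rose (16.2%, against 1.88% over all genes) and 1 fell. The median was 0.68 (0.99 on clone array 1 and 0.51 on array 2). TSC22D3, a leucine zipper protein induced by glucocorticoids, was at 10.58 and 11.19 in MCF-10F and at 13.15 and 12.93 in the clone, and its difference was 0.23 and not called without probe sets of shared targets. TXNIP, which inhibits thioredoxin and glucose uptake, was at 11.03 and 11.65 against 13.58 and 13.26. FOXO3 rose by 0.78 (SE 0.14, adjusted p = 0.0461) and KLF11 by 2.19 (adjusted p = 0.024). IRS1, an adaptor of the insulin receptor, was the member that fell, from 9.92 and 10.55 to 6.69 and 6.80 (adjusted p = 0.00748). In limma the count of 6 was 0 without MCF-10F replicate 1 (13 at an unadjusted p under 0.05), 8 without MCF-10F replicate 2, 4 without trMCF clone 11 replicate 1 and 16 without replicate 2.

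Cell cycle genes gave few calls, although 10 of 49 replication genes lay 2-fold or more lower on each clone array (3.69% over all genes). At an unadjusted p under 0.05, 18 of the 49 were lower. The share over all genes at that threshold was not counted, and with a 2-fold minimum added 1178 of 19775 were lower. CDT1, a replication licensing factor, rose from 9.02 and 8.68 to 10.24 and 10.41 (adjusted p = 0.0226). FEN1, a flap endonuclease, was at 11.24 and 10.89 in MCF-10F and at 7.92 and 9.32 in the clone and fell by 2.45 (adjusted p = 0.0474). UHRF1, which guides maintenance of DNA methylation, fell by 2.64 (adjusted p = 0.042). The median over the replication genes was -0.72 on clone array 1 and -0.25 on array 2. Over 57 mitosis genes it was -0.19 and 0.40, so the clone arrays disagreed in sign, and NEK2, a centrosome kinase, was the member that rose (by 1.27, adjusted p = 0.0322). RBL2, a pocket protein of quiescence, rose by 1.54 (adjusted p = 0.0427) and CDC25A, a phosphatase that drives S-phase entry, fell by 1.48 (adjusted p = 0.0442). CDKN1B, the inhibitor p27, differed by 1.18 (adjusted p = 0.0523) and CCND1, cyclin D1, by -2.18 (adjusted p = 0.0643), and neither was called.

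Of 31 p53 target genes, 4 fell (2 without MCF-10F replicate 1, MCF-10F replicate 2 or trMCF clone 11 replicate 1, and 6 without clone replicate 2). TP53I3, an oxidoreductase, was at 12.01 and 11.22 in MCF-10F and at 8.22 and 8.12 in the clone, a fall of 3.44 (SE 0.27, adjusted p = 0.00873). AEN, a nuclease, fell by 1.53 (adjusted p = 0.0339) and ZMAT3, a zinc finger RNA-binding protein, by 1.43 (adjusted p = 0.0499). CDKN1A, the best known target, was at 10.86 and 10.74 against 9.76 and 9.39, a difference of -1.22 that was not called (SE 0.37, adjusted p = 0.143). The 4 falls were 12.9% of the list, against 2.64% over all genes.

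**Figure D4:**
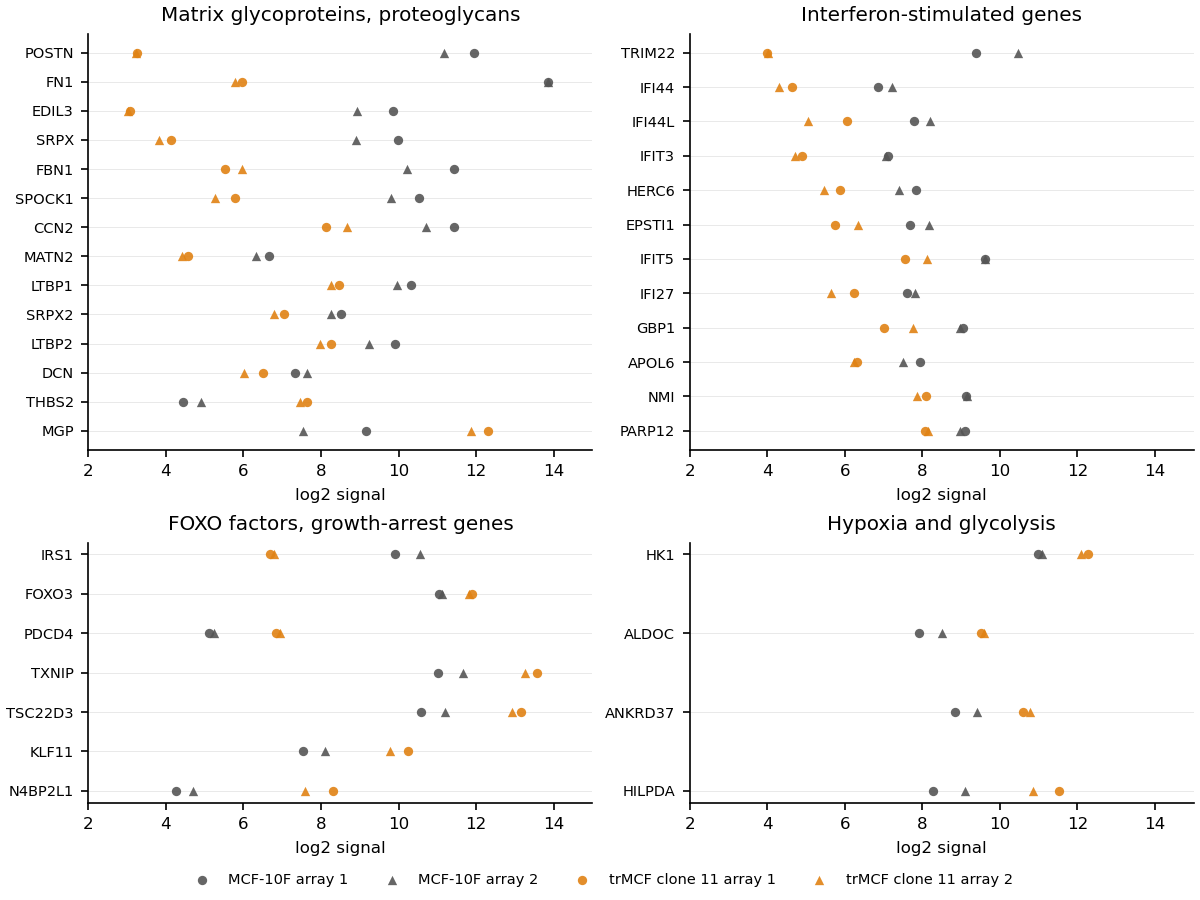
Log2 signal (x axis) of the called members of 4 gene lists, 1 point per array, grey for MCF-10F and orange for trMCF clone 11, circles for array 1 and triangles for array 2. The arrays of the lines do not overlap for any gene shown, as for all called genes, and the 12 interferon-stimulated genes are all lower in the clone.

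Hypoxia and glycolysis genes rose where they were called, 4 of 41 (1 without MCF-10F replicate 1 or trMCF clone 11 replicate 1, 7 without MCF-10F replicate 2 or clone replicate 2). HILPDA, a lipid droplet protein, was at 8.27 and 9.09 in MCF-10F and at 11.53 and 10.85 in the clone, a rise of 2.51 (SE 0.36, adjusted p = 0.031). HK1, a hexokinase, rose from 10.99 and 11.09 to 12.26 and 12.10 (adjusted p = 0.0239), ALDOC, an aldolase, by 1.35 (adjusted p = 0.0496) and ANKRD37 by 1.56 (adjusted p = 0.0339). NDRG1, a stress-response gene, was at 10.16 and 12.20 against 13.89 and 13.98 (difference 2.75, adjusted p = 0.073). Called members made up 9.76% of the list, against 1.88% called higher over all genes.

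Cholesterol and fatty acid synthesis showed 4 falls and 1 rise among 29 (13.8% and 3.45%, against 2.64% and 1.88% over all genes), the rise being ABCG1. EBP, a sterol isomerase, fell from 10.63 and 10.23 to 8.49 and 8.94 (adjusted p = 0.025). FDPS, which makes farnesyl diphosphate, fell by 1.53 (adjusted p = 0.0326), NSDHL, a sterol dehydrogenase, by 1.53 (adjusted p = 0.0445), and ELOVL6, a fatty acid elongase, by 1.96 (adjusted p = 0.0315). EBP and NSDHL both lie on the X chromosome. In limma the 4 falls were 0 without MCF-10F replicate 1 (7 at an unadjusted p under 0.05), 2 without MCF-10F replicate 2 or trMCF clone 11 replicate 1, and 9 without clone replicate 2.

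Lysosome and autophagy genes were called higher in 4 and lower in 2 of 41 cases (9.76% and 4.88%, against 1.88% and 2.64% over all genes). FLCN, folliculin, a regulator of RRAGD, was at 6.17 and 6.40 in MCF-10F and at 7.98 and 7.99 in the clone, a rise of 1.70 (SE 0.15, adjusted p = 0.012). FNIP2, its binding partner, fell by 1.45 (adjusted p = 0.0327). FUCA1, a lysosomal fucosidase, fell by 2.70 (adjusted p = 0.0245) and ATG14, of a PI3-kinase complex of autophagy, rose by 1.57 (adjusted p = 0.0319). In the stress response of the endoplasmic reticulum DDIT3, the factor CHOP, rose from 7.22 and 7.39 to 9.24 and 9.21 (SE 0.15, adjusted p = 0.00788), whereas CRELD2 fell by 1.71 (adjusted p = 0.0276) and DNAJB9 rose by 0.94 (adjusted p = 0.0485). TSC22D3 was the 1 called gene of 19 in the glucocorticoid list, whose median was 0.93 on clone array 1 and 0.28 on array 2.

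Steroid and retinoid genes bear on how these lines were made and treated. ESR1, the estrogen receptor, was at 5.40 and 4.91 in MCF-10F and at 7.38 and 8.04 in the clone, a rise of 2.56 (SE 0.29, adjusted p = 0.0197) that was called with either clone array alone. STS, which frees estrone from its sulfate, was at 8.82 and 10.00 against 3.39 and 4.15. As the mean of all its probe sets STS differed by -2.83. HSD17B10, a mitochondrial dehydrogenase, fell by 1.03 (adjusted p = 0.0359). HSD17B2, which oxidises estradiol to estrone, rose by 1.39 (adjusted p = 0.047), and CYP1B1, which hydroxylates estradiol, from 10.88 and 10.58 to 12.53 and 11.92 (adjusted p = 0.0389). Of 28 such genes 3 rose and 2 fell (10.7% and 7.14%, against 1.88% and 2.64% over all genes). Of 23 retinoid genes 3 fell (13.0%), all dehydrogenases: ALDH1A3, which makes retinoic acid, from 12.04 and 12.02 to 10.67 and 10.03 (adjusted p = 0.034), RDH10 by 1.33 (adjusted p = 0.0469) and DHRS9 by 1.94 (adjusted p = 0.0473).

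Lists of growth factor pathways held 1 or 2 calls each. In the insulin-like growth factor list 2 of 18 fell, PAPPA and IRS1 (11.1%, against 2.64% over all genes). Of 14 ERBB genes 1 was called each way (7.14%, against 1.88% higher and 2.64% lower over all genes). The Wnt call was 2.5% of its list and the ERK output call 3.12%, near the share over all genes. DKK1, a Wnt inhibitor, was at 13.04 and 12.03 in MCF-10F and at 9.42 and 7.38 in the clone, a fall of 4.14 (SE 0.67, adjusted p = 0.0384), the 1 call among 40 Wnt genes. BTC, an EGF-like ligand, fell by 1.57 (adjusted p = 0.0427) and LRIG1, a negative regulator of ERBB receptors, rose by 1.65 (adjusted p = 0.0244). PIK3CD, a PI3-kinase subunit, rose by 1.35 (adjusted p = 0.0217). PHLDA2 fell by 1.14 (adjusted p = 0.0339; -0.11 and not called without probe sets of shared targets), the 1 call among 32 ERK output genes, and EFNB2, an ephrin, by 2.19 (adjusted p = 0.0146).

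Among epithelial genes SCEL, sciellin of the cornified envelope, fell from 10.26 and 9.30 to 6.49 and 6.18 (SE 0.37, adjusted p = 0.017). SPRR3 and SPRR2B, small proline-rich precursors of that envelope, fell by 2.56 (adjusted p = 0.0372) and 2.27 (adjusted p = 0.0301). These 3 were the calls among 38 genes of squamous differentiation (7.89%, against 2.64% over all genes). SPRR2B has close relatives, so its probes may read more than 1 gene. KRT80 fell by 1.17 (adjusted p = 0.0348), CLDN23 by 1.12 (adjusted p = 0.0474), and DSC3, a desmosomal cadherin, rose by 1.75 (adjusted p = 0.0289).

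Enzymes that modify DNA and histones gave 2 rises and 2 falls among 68 (2.94% each), near the shares over all genes (1.88% and 2.64%). PRMT6, an arginine methyltransferase, was at 9.13 and 8.63 in MCF-10F and at 3.56 and 5.97 in the clone, a fall of 4.11 (SE 0.73, adjusted p = 0.0454). KDM2B fell by 0.94 (adjusted p = 0.0498), while EZH1 rose by 1.34 (adjusted p = 0.0366) and PHF21A by 1.68 (adjusted p = 0.0333). Without probe sets of shared targets PHF21A was at 0.35 and SYNCRIP at -0.51, neither of them called. NR1D2, a repressor of the circadian clock, rose by 1.93 (adjusted p = 0.0406), and of the splicing genes SYNCRIP fell by 1.23 (adjusted p = 0.0375) and CLK4 rose by 1.01 (adjusted p = 0.0382). In 9 of 45 lists limma called no member, among them Notch genes (28), HOX genes (28), antioxidant genes (31) and ribosomal proteins (43). Over the 211 members of the 9 lists 36 passed an unadjusted p under 0.05. The share of all genes that did so was not counted. With a 2-fold minimum added, 641 genes were higher and 1178 lower of 19775, so many genes pass that threshold. NOTCH1 differed by 0.80 (SE 0.28, adjusted p = 0.198) and NQO1 by 0.39 (SE 0.35, adjusted p = 0.611).

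Other genes differed between the clone arrays themselves. HSPA6, an inducible heat shock protein, was at 5.37 and 5.65 in MCF-10F, at 9.81 on clone array 1 and at 5.16 on clone array 2. RNF152, a lysosomal ubiquitin ligase, was at 3.27 and 3.51 against 8.02 and 3.94. GEN1, ZNF302, ZNF407-AS1, MIR570HG, CCNYL1 and DUSP6 were each over 3 log2 units lower on clone array 1 than on array 2. DUSP6, a phosphatase of ERK, was at 11.05 and 12.07 against 8.07 and 11.31, so array 2 lay between the MCF-10F arrays. None of these 8 was called. Other stress genes, chosen after their values were seen, differed among themselves: PPP1R15A was at 9.90 and 7.02 on the clone arrays and DNAJB1 at 12.48 and 10.75, whereas HSPD1 was at 13.83 and 13.89.

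Genes lower in the clone were more frequent on the X chromosome. By the RefSeq gene order (GRCh38.p14), 57 of 696 genes on X fell (8.19%), against 465 of 18991 on chromosomes 1 to 22 (2.45%). Dim genes carry little information, so genes with a mean level over all 8 arrays at or above the median gene were taken next. Of these, 39 of 273 on X fell (14.3%) against 348 of 9601 elsewhere (3.62%). Over all 696 X genes, dim ones included, the median was 0.02 on clone array 1 and -0.13 on array 2, against 0.11 and 0.01 on chromosomes 1 to 22, and 55.7% lay below MCF-10F, against 41.5%. Among the brighter genes the median X gene was -0.57 on clone array 1 and -0.47 on array 2, against -0.06 and 0.01 on the other chromosomes, and 82.8% lay below MCF-10F, against 51.5%. The brighter X median was -0.59 and -0.58 for clone array 1 against each MCF-10F array, and -0.49 and -0.46 for clone array 2. The same median was -0.50 for the clone at 1 µM ATRA and -0.52 at 10 µM, comparisons that share the MCF-10F arrays. Of the 273, 5 were called lower without MCF-10F replicate 1 (1.83%, against 0.49% elsewhere), 23 without MCF-10F replicate 2 (8.42% and 2.45%), 32 without trMCF clone 11 replicate 1 (11.7% and 2.06%) and 106 without replicate 2 (38.8% and 18.9%). These shares are descriptions, with no test between chromosomes.

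The X genes that fell had many roles. SRPX was at 9.98 and 8.89 in MCF-10F and at 4.14 and 3.81 in the clone. MCF2, a guanine nucleotide exchange factor, was at 8.58 and 8.02 against 4.65 and 5.01, and C1GALT1C1, a chaperone needed for O-glycans, at 10.40 and 10.66 against 7.54 and 8.14. They fell by 3.47 (MCF2) and 2.69 (C1GALT1C1). Abundant genes shifted as well: TMSB4X, the actin-binding thymosin beta 4, fell by 1.47, from 13.93 and 13.98 to 12.40 and 12.56. IRAK1, a kinase downstream of MYD88, fell by 1.08 and UBE2A, a ubiquitin-conjugating enzyme, by 1.07. TSC22D3, CLTRN, CAPN6 and FAM120C were the 4 X genes that rose, by 2.15, 1.69, 1.51 and 0.89. CAPN6 stayed dim, at 3.34 and 3.12 against 4.38 and 5.11. NLGN4X, PUDP and STS, next to each other among the measured genes, formed 1 of 2 runs of 3 neighbours that fell. NLGN4X, a synaptic adhesion protein, was at 7.61 and 7.33 against 3.49 and 3.23 (SE 0.19, adjusted p = 0.00314), and PUDP, a nucleotidase, fell by 1.11 (adjusted p = 0.0498).

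**Figure D5:**
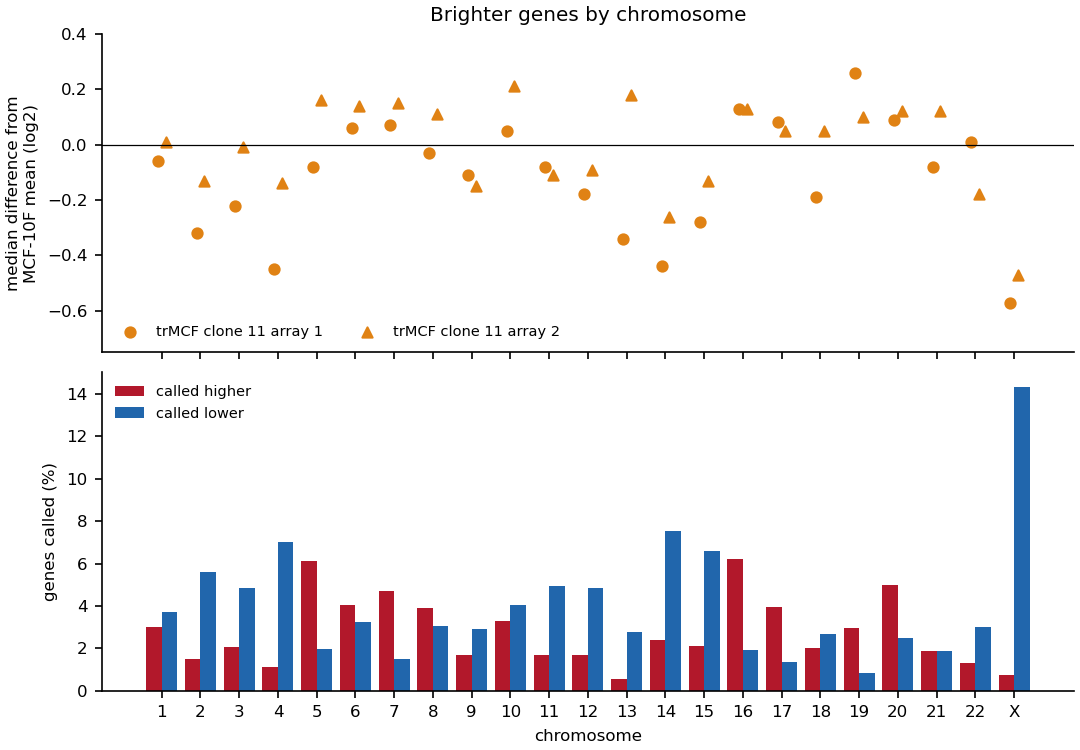
Brighter genes by chromosome: the median log2 difference of each clone array from the MCF-10F mean (upper panel, circles for array 1 and triangles for array 2) and the percent of genes called higher or lower (lower panel). X has the lowest medians, -0.57 and -0.47, and 14.3% of its genes called lower.

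Shorter stretches were described with running medians over 21 neighbouring brighter genes. Over 9414 overlapping windows the 5th and 95th percentiles of the median were -0.50 and 0.32. The lowest was on X, from JPX to GLA around HMGN5, at -1.24 (-1.34 on clone array 1 and -0.74 on array 2), with 5 of 21 genes called lower. On chromosome 14 the stretch from FKBP3 to FRMD6 had a median of -1.03 (-1.38 and -0.63), and on chromosome 4 that from ANKRD17 to CCNI, around BTC and the chemokine cluster, of -0.87 (-1.02 and -0.51). The highest was on chromosome 16, from FA2H to CMIP around KARS1, at 0.88 (0.93 on clone array 1 and 0.88 on array 2), with 7 of 21 called higher and 0 lower. Windows were picked as extremes and carry no test.

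The other run of 3 neighbours that fell was SUSD5, UBP1 and CLASP2 on chromosome 3. SUSD5, a sushi domain protein, was at 7.93 and 6.30 in MCF-10F and at 3.11 and 3.12 in the clone (adjusted p = 0.0236), UBP1, a transcription factor, fell by 1.22 (adjusted p = 0.0439) and CLASP2, a microtubule protein, by 1.02 (adjusted p = 0.0337). Pairs of neighbours were called together 28 times as lower and 12 times as higher, where 2.64% and 1.88% of all genes were called. The number of pairs to be met by chance was not computed. The 12 include MIR205 with its own host transcript MIR205HG. BDKRB1 and BDKRB2, the bradykinin receptors, both rose, by 1.41 (adjusted p = 0.0325) and 1.57 (adjusted p = 0.0322).

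A gene was given by its brightest probe set, and the others were compared with it. Of 227 genes that rose and had another single-gene probe set, 211 had 1 with the same sign and 93 had 1 called the same way. Of 353 genes that fell, 317 and 131 did. IFNAR1 was the 1 gene with a probe set called in the opposite direction.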

How the data were processed

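RNA of 2 arrays of MCF-10F and 2 of trMCF clone 11 was compared, on Affymetrix U133 Plus 2.0 arrays. The authors deposited 1 linear intensity per probe set and array, already normalized. Their Methods describe 2 algorithms, Iterative Plier 16 (GeneSpring) and globally scaled MAS 5.0. It is not stated which of them gave the intensities analysed, and background correction and the low end of the scale differ between them.

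The log2 of each intensity was analysed without rescaling, and 62 control probe sets were left out of 54675. Groups were compared with limma 3.58.1 (R 4.3.3; lmFit, eBayes) over 54613 probe sets, with 1 mean for each of 3 groups (MCF-10F, trMCF clone 11 and the clone at 1 µM ATRA, 6 arrays) and no covariate. The prior had 2.91 degrees of freedom beside 3 residual ones. P-values were adjusted by Benjamini-Hochberg over all probe sets tested, and genes with an adjusted p under 0.05 were called. Of 19775 genes, 19735 matched a current RefSeq symbol. Probe sets that name several genes (1801) or none (11721) were left out of gene values but kept in the adjustment. Genes are named by a rule: the 15 largest rises and falls that held on both clone arrays, up to 4 members of each list with the smallest p, the best known member of a list, the 8 genes farthest apart between the clone arrays, and genes of neighbouring runs. Further list members, X genes and pairs named with values were chosen after their values were seen. The members and the 45 gene lists were chosen with earlier results of these data known, so no list is independent evidence. The number of arrays limits the precision. On simulated data with 54613 probe sets for this comparison, the fit called 1 of 50 changes of 1 log2 unit, 12 of 50 of 1.5, 31 of 50 of 2 and 47 of 50 of 4, and 6 of 54413 unchanged probe sets. Far fewer probe sets were changed there than the 895 genes called in the real data. The adjusted threshold was therefore stricter in the simulation, and these shares do not give the power of the real comparison. Alternatives were other sets of arrays, quantile normalization, a trend and robust prior, filters and a floor on dim probe sets, the replicate block, other probe sets and each array left out. Figures were drawn with matplotlib 3.10.9.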

Additional observations from a re-analysis of the deposited data

How the results depend on the processing

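Against 372 genes higher and 523 lower, the fit of all 8 arrays called 901 and 1135, the fit of only the 4 arrays compared 4 and 13, a floor of 16 46 and 51, and a fold of 2 at an unadjusted p under 0.05 641 and 1178. With each array left out in turn the counts ran from 33 to 1341 higher and from 126 to 2201 lower. The lowest came without MCF-10F replicate 1 and the highest without trMCF clone 11 replicate 2; without clone replicate 1, 330 were lower. Quantile normalization, a trend and robust prior, leaving out the dimmest probe sets, leaving out probe sets of shared targets and the mean of all probe sets of a gene kept both counts within 1.5 times. With a replicate block the counts were 188 and 283, of which 174 and 267 were also called without it; the replicate numbers are not stated to pair the samples, and the deviations of same-numbered arrays correlated at 0.149. Genes that held on both clone arrays, 410 higher and 730 lower, were 5431 and 4119 at any fold, 73 and 173 at 4-fold, 331 to 614 higher and 673 to 997 lower with an MCF-10F array left out. MATN2, called lower, differed by 0.05 in the opposite direction without probe sets of shared targets. The causes were not tested.

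Of 132 named genes that were called, 92 lost the call without MCF-10F replicate 1, 50 without MCF-10F replicate 2, 43 without trMCF clone 11 replicate 1 and 2 without clone replicate 2. The call was lost for 123 with only the 4 arrays compared, for 122 with a floor of 16, for 20 with the mean of all probe sets, for 14 with a trend and robust prior, for 7 with quantile normalization, for 3 without the dimmest probe sets and for 0 with all 8 arrays. Under the floor CLCA2, RRAGD, MGP and FBN1 lost it at unchanged differences of 4.93, 3.48, 3.74 and -5.10. A call lost under the floor therefore does not by itself mark a dim gene. Without probe sets of shared targets 87 kept the call, 19 lost it and MATN2 reversed. The remaining named genes had no value under this setting and could not be checked. With the replicate block 35 lost it: CLEC2B, RRAGD, KRT80, SPRR3, DCN, ACVR2A, ACVR1B, PARP12, IFI44L, GBP1, EPSTI1, MYD88, UHRF1, FEN1, NEK2, CDC25A, FOXO3, AEN, ZMAT3, BTC, HSD17B10, ALDOC, FDPS, NSDHL, DNAJB9, ATG14, FNIP2, ULK1, NR1D2, PHF21A, EZH1, PRMT6, KDM2B, SYNCRIP and CLK4. Of the 30 largest changes, 4 kept it under every alternative run. With 2 arrays a line, a gene that missed the threshold is not shown to be equal. Probe sets under a signal of 16 lie near background, and their changes are uncertain in size.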
